A study of Mus musculus with 17 samples.

Results

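Transcripts of 10 genes of complement C1q and of apoptotic cell clearance were followed in mouse bone marrow-derived macrophages: C1qa, C1qb, C1qc, Mertk, Axl, Gas6, Trem2, Apoe, Mfge8 and Timd4. They were taken as a named list from the 55401 gene identifiers of the count table, and all 10 were found and passed the low-count filter. The study covered 17 libraries in 6 groups. Of these, 4 groups were macrophages of the C57BL/6J strain: control cells (3 libraries), cells in medium conditioned by B16F10 mouse melanoma cells (3), and cells in that medium with KCl (3) or NaCl (2) added to a final 40 mM. Treatment lasted 6 hours with conditioned medium alone and with either salt. In 2 more groups the conditioned medium held KCl made isotonic, and the cells carried floxed Kcnj2 alone (Kcnj2f/f, 3 libraries, named floxed here) or floxed Kcnj2 with the Lyz2-Cre driver (Lyz2-Cre-Kcnj2f/f, 3 libraries, named knockout here). Lyz2-Cre acts in myeloid cells, and Kcnj2 encodes an inward rectifier potassium channel. What the control cells received, the animals' age and sex, and the composition of the isotonic medium are not stated. Nothing says whether libraries of a group came from separate animals or cultures, so a p-value here covers the spread among these libraries alone, which could be technical.

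Macrophages recognise dying cells through phosphatidylserine on the dying cell's surface, either directly, as TIMD4 does, or through soluble bridges. GAS6 bridges phosphatidylserine to the receptor kinases MERTK and AXL, and MFGE8 bridges it to integrins. C1q, the recognition unit of the classical complement pathway, is built from A, B and C chains and also coats apoptotic cells. Macrophages are a main source of C1q in the body. TREM2 is a lipid-sensing receptor that signals through TYROBP, and apolipoprotein E carries lipids out of cells that have taken up debris and is among the ligands of TREM2.

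Totals were 13503869 to 19391623 counts per library. Levels below are in CPM (a gene's counts set against the total of its library) after TMM scaling over the 17 libraries, and per-length levels are CPM per kb of transcript. Kcnj2 stood at 139.3 to 172.9 CPM in floxed and 19.7 to 29.4 CPM in knockout libraries, which did not overlap. The KCl and isotonic libraries differed among themselves more than those of other groups did: chi-square per degree of freedom between replicates was 31.5 to 98.6 with KCl and 5.95 to 146 in the isotonic groups, against 2.08 to 5.83 elsewhere. They also differed in their length slope, the change of a library's log2 level with log2 transcript length relative to the other libraries. This slope was between -0.0801 and 0.00393 with KCl, between -0.124 and 0.0859 in floxed and between -0.108 and -0.0105 in knockout libraries, and between 0.0272 and 0.0893 in the other groups. All 10 macrophage markers listed were detected and summed to 28900 to 34000 CPM, except in knockout libraries (17700 to 18800 CPM), where Lyz2, the locus that carries the Cre and 65.8% of the list's counts over all libraries, is itself on the list. Of 8 melanoma markers, Tyr and Dct had 0 counts in all libraries, and Mitf, which macrophages also express, made up 99.5% of the rest.

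In conditioned medium, most of the 10 genes stood lower than in control cells. C1qa, C1qb, C1qc, Mertk, Gas6, Trem2, Apoe and Mfge8 fell, Timd4 rose, and Axl did not pass the test. That is 9 of 10 genes called by edgeR's quasi-likelihood test at an adjusted p under 0.05, where 53.5% of the 14519 genes tested were called (27.2% as higher, 26.4% as lower). The median log2 fold change was -0.45 for the 10 genes and -0.037 for all genes tested. Under scaling by total counts, 24.9% rather than 50.8% of all calls were higher, and the same 9 genes of the 10 were called in the same directions. Replicates of the groups did not overlap for any of the 10 genes, which held for 68.1% of all genes. Marker lists of other cell types moved alongside without overlap. From control cells to conditioned medium, the 8 stromal markers, led by Col1a2, went from 643 to 796 CPM in sum to 558 to 617 CPM, and the 6 B cell markers, nearly all Ighm, from 30.7 to 38.8 to 22.3 to 29 CPM. The 8 T and NK cell markers, nearly all Cd4, went from 10.9 to 12.2 to 6.38 to 10.4 CPM. The 9 neutrophil markers, led by S100a8 and with Retnlg at 0 in all libraries, went up from 7.39 to 8.9 to 18.4 to 22.4 CPM, and the melanoma list, nearly all Mitf, from 67.3 to 72.4 to 179 to 185 CPM. The part of these lists in the result was not tested. In bulk RNA, fewer cells of a kind and less RNA per cell cannot be told apart.

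Adding KCl to conditioned medium moved the same 10 genes in both directions. C1qa, Gas6, Trem2, Apoe and Mfge8 rose, Mertk, Axl and Timd4 fell, and C1qb and C1qc did not pass the test. These 8 of 10 calls stand beside 53.9% of all genes tested (26.6% higher, 27.4% lower). The median log2 fold change was 0.19 for the 10 genes and -0.012 for all. Adding NaCl to the same final concentration gave 1 call of 10, Gas6 (higher), where 28.7% of all genes were called (13.7% higher, 14.9% lower). With the NaCl and conditioned medium libraries fitted alone in edgeR, a setting that called 6245 of 13378 genes, 5 more passed. They were Axl (adjusted p = 0.000473), Mfge8 (0.00588), C1qa (0.000699), Mertk (0.0484) and Timd4 (0.00526), the first 2 higher and the other 3 lower with NaCl. Mfge8 also passed in DESeq2 (0.0182), and adding the length slope to the fit gave calls for Mfge8 (0.025) and Mertk (lower, 0.00213). The direct comparison of KCl with NaCl gave 6 calls, with C1qa, Gas6, Trem2 and Mfge8 higher and Mertk and Axl lower with KCl, where 31.6% of all genes were called (15.4% higher, 16.2% lower). None of these 6 calls held when the spread was estimated from the KCl and NaCl libraries alone (adjusted p 0.0668 to 0.166), a setting in which 8 of all genes were called. With the length slope as a covariate, C1qa, Axl, Trem2 and Mfge8 lost their calls and Mertk changed sign, leaving Gas6. Scaling by total counts ended the calls of Gas6 (adjusted p = 0.285, edgeR) and Mfge8 (0.099). Fitting without the low-count filter ended that of Gas6 (0.0679) and added Apoe (higher, 0.014). Without NaCl library 2, 5 of the 6 were lost and C1qa stayed (adjusted p 0.0685 to 0.0941 for the lost ones). Without NaCl library 1, Mertk, Gas6 and Mfge8 were lost (0.0519 to 0.22), and without KCl library 1 Gas6 was lost (0.0559). The comparisons of each salt with conditioned medium share the same 3 conditioned medium libraries. Libraries did not overlap for 6 of the 10 genes between KCl and conditioned medium, beside 56.7% of all genes. This held for 7 of 10 between NaCl and conditioned medium (60.7% of all genes) and 7 of 10 between KCl and NaCl (51.1%). With KCl, summed stromal markers were 338 to 525 CPM, against 541 to 604 CPM with NaCl, and the dendritic cell list, led by Xcr1, summed to 18.8 to 27.5 CPM with KCl against 9.61 to 11 CPM with NaCl and 4.04 to 6.46 CPM without salt. Their part in these results was not tested.

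**Figure D1:**
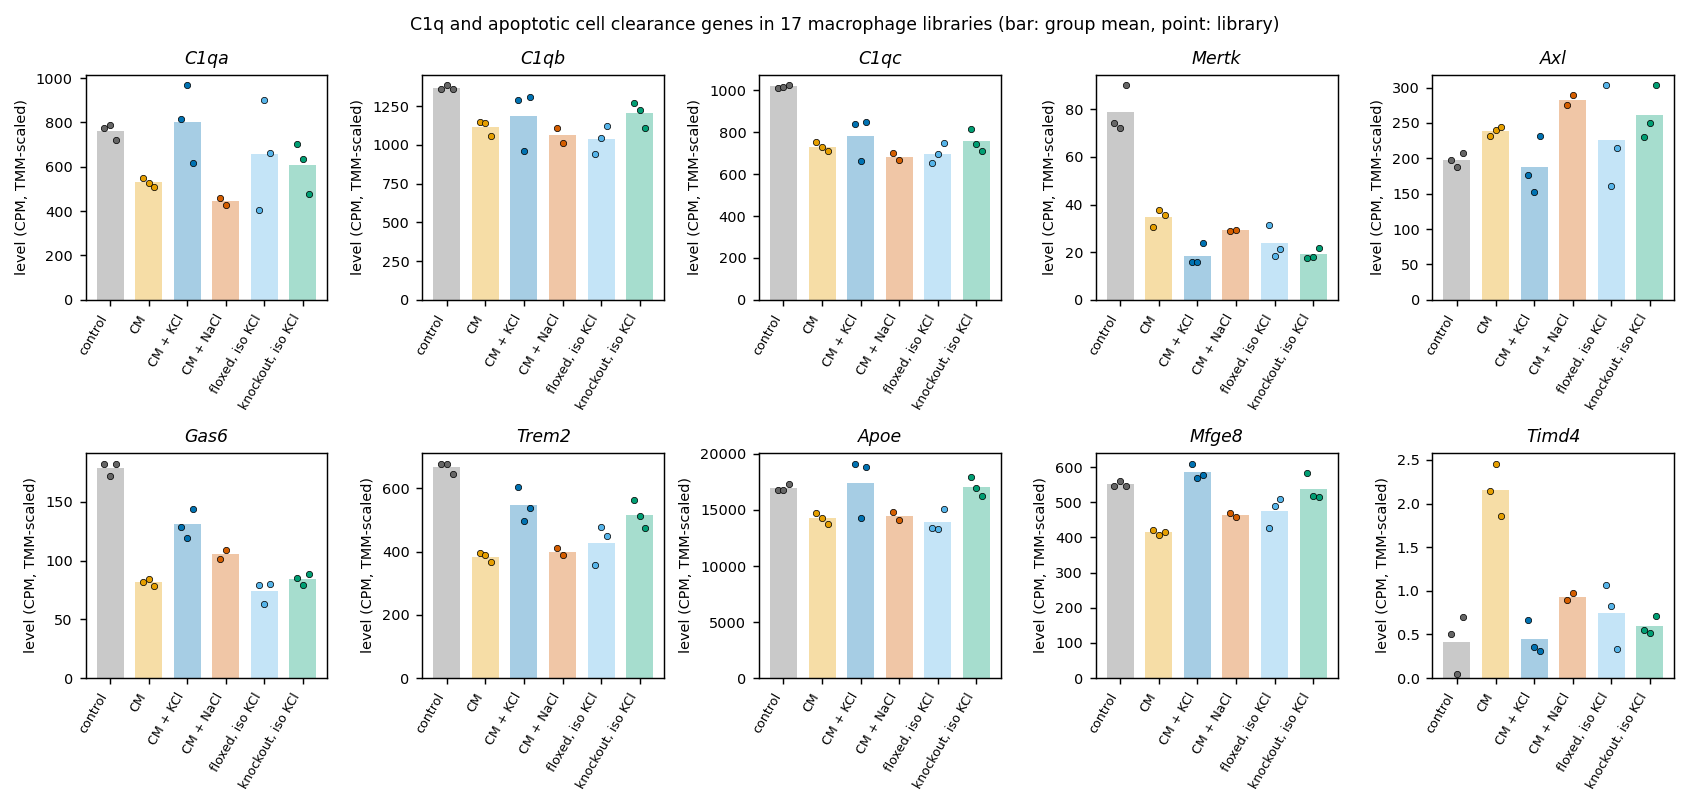
Levels of the 10 genes (CPM, TMM-scaled, linear axis from 0) in each of the 17 libraries; bars are group means and points are libraries, 3 a group except 2 with NaCl. C1qb, C1qc, Mertk, Gas6 and Trem2 have their 3 control libraries above all others, Timd4 is highest in conditioned medium, and C1qa and Axl spread widely within the KCl and floxed groups.

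**Figure D2:**
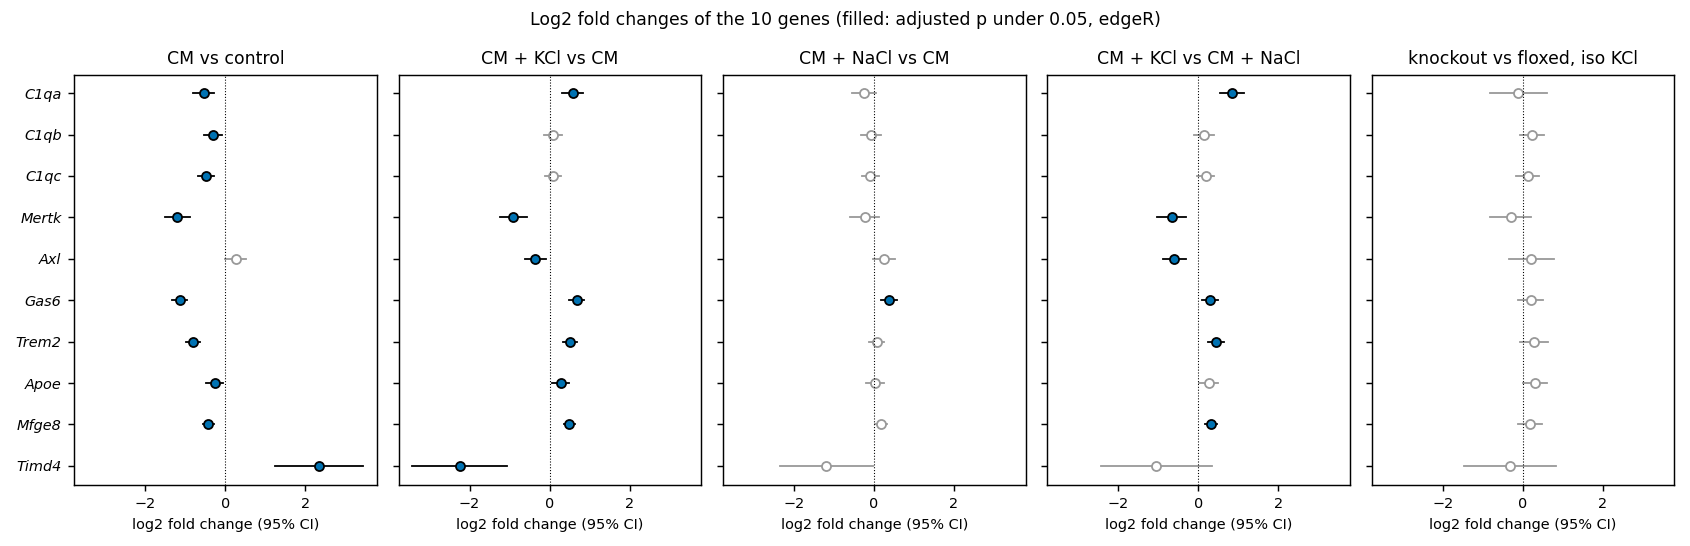
Log2 fold changes of the 10 genes with 95% confidence intervals in 5 comparisons (CM, conditioned medium; iso, isotonic); filled points passed an adjusted p of 0.05 in edgeR. Timd4 has the widest intervals, and no gene is filled in the comparison of knockout with floxed cells.

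The 3 C1q genes lie side by side on the minus strand of chromosome 4 (GRCm38): C1qb at chr4:136880129-136886187, C1qc at chr4:136889804-136893065 and C1qa at chr4:136895917-136898803, each with 3 exon blocks. The promoters of C1qb and C1qc are shown, as C1qa had no RefSeq window. The C1qc/C1qb ratio varied over a narrower range (0.342 to 0.425 over the libraries) than that of C1qa to C1qb (0.433 to 1.06). Each run covers 250 bases before to 50 after the RefSeq start (GRCm38.p6, minus strand, at chr4:136886151-136886450 and chr4:136892865-136893164), written 5′ to 3′. Capitals mark matches, on either strand, to TGCTGA (a MAF core), GAGGAA (the PU.1 core), AGGTCA (the repeat unit bound by nuclear receptors) and GGGCGG (the GC box bound by SP1).
C1qb: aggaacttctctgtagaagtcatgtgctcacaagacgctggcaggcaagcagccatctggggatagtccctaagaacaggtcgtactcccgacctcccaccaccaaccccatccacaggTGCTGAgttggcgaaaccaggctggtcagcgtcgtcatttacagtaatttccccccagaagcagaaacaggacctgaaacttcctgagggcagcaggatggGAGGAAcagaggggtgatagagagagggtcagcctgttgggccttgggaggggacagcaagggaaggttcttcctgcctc
C1qc: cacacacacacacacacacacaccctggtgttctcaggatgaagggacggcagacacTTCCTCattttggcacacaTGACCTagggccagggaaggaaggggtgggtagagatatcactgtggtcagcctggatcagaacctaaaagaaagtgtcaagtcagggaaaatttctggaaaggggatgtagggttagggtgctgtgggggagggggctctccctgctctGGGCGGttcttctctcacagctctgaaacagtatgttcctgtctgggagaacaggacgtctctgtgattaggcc
C1qb held TGCTGA at position -131 and GAGGAA at -30, counted from the start. C1qc held GAGGAA at -193 and AGGTCA at -174, both on the opposite strand, and GGGCGG at -24. Of 32851 promoters of this length, 19.5% held TGCTGA, 28.3% GAGGAA, 16.3% AGGTCA and 35.7% GGGCGG on either strand, so such matches are common. RefSeq windows were found for 9 of the 10 genes, all but C1qa. No motif match in these 9 windows overlapped another.

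C1qb was the most abundant C1q transcript per length in every group by its mean, at 1257 CPM per kb in control cells against 732 for C1qa and 528 for C1qc. C1qb measured 1361, 1384 and 1358 CPM in control, 1148, 1142 and 1058 CPM in conditioned medium, 1291, 959.1 and 1308 CPM with KCl and 1110 and 1012 CPM with NaCl. The control libraries lay above all others. C1qb fell by 0.30 on the log2 scale in conditioned medium (SE 0.105, adjusted p = 0.0269, edgeR), but this call was lost when any 1 of the 6 libraries was left out (adjusted p 0.0533 to 0.0949). With KCl its log2 fold change was 0.079 (SE 0.105, adjusted p = 0.552, edgeR; 95% interval -0.15 to 0.30), and without KCl library 2, the lowest of its group, it was 0.22 (adjusted p = 0.00971, within 0.00287 to 0.981 over all 15 alternatives).

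C1qc, which encodes the C chain, measured 1014, 1019 and 1025 CPM in control, 752.1, 732.0 and 712.1 CPM in conditioned medium, 839.1, 661.4 and 847.9 CPM with KCl, and 701.3 and 666.3 CPM with NaCl. C1qc fell by 0.49 in conditioned medium (SE 0.0906, adjusted p = 0.000492, edgeR). Under KCl the difference from conditioned medium was 0.088 (SE 0.0905, adjusted p = 0.438, edgeR), with KCl library 2 again the low one, and 0.20 without that library (adjusted p = 0.00905, within 0.00292 to 0.797 over the 15 alternatives). Within a library, the C1qc/C1qb ratio of counts per kb was 0.415 to 0.425 in control and 0.342 to 0.392 in the 14 other libraries. Its means were 0.37 in conditioned medium against 0.42 in control, and 0.354 in knockout against 0.381 in floxed libraries, both without overlap and both at the smallest p that 3 against 3 allows (exact 2-sided permutation p = 0.1, adjusted p = 0.25 over 15 tests of ratios).

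C1qa, which encodes the A chain, varied more widely with KCl. It measured 773.4, 789.6 and 722.1 CPM in control, 551.1, 528.0 and 508.2 CPM in conditioned medium, 815.3, 967.5 and 617.2 CPM with KCl, and 459.0 and 428.4 CPM with NaCl. It fell by 0.53 in conditioned medium (SE 0.122, adjusted p = 0.00218, edgeR) and rose by 0.59 with KCl (SE 0.122, adjusted p = 0.00119, edgeR), where no KCl library overlapped conditioned medium. With NaCl its log2 fold change was -0.25 (SE 0.136, adjusted p = 0.204, edgeR), and KCl exceeded NaCl by 0.83 (SE 0.139, adjusted p = 0.00185, edgeR), a difference that was 0.16 with the length slope as a covariate (adjusted p = 0.61). KCl library 2 was the highest of all libraries for C1qa and the lowest of its group for C1qb and C1qc.

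The order of the libraries by C1qa/C1qb followed their length slope within the KCl, floxed and knockout groups. With KCl the C1qa/C1qb ratio of counts per kb was 0.661, 1.06 and 0.494 in libraries with slopes of -0.0586, -0.0801 and 0.00393. In floxed libraries it was 0.451, 0.903 and 0.619 at slopes of 0.0859, -0.124 and -0.0675, and in knockout libraries 0.58, 0.544 and 0.45 at slopes of -0.108, -0.0959 and -0.0105. The C1qa and C1qb transcripts have 1040 and 1088 bp of exon. When the length slope was a covariate of the fit, the KCl difference of C1qa from conditioned medium was 0.048 (adjusted p = 0.76), and over all 15 alternatives it ran from 0.048 to 0.74 with adjusted p between 9.18e-09 and 0.76. The C1qa/C1qb ratio differed between conditioned medium and control without overlap (0.484 to 0.502 against 0.556 to 0.597), but an exact 2-sided permutation test of 3 against 3 cannot go below p = 0.1, the value it gave (adjusted p = 0.25 over 15 tests of ratios).

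**Figure D3:**
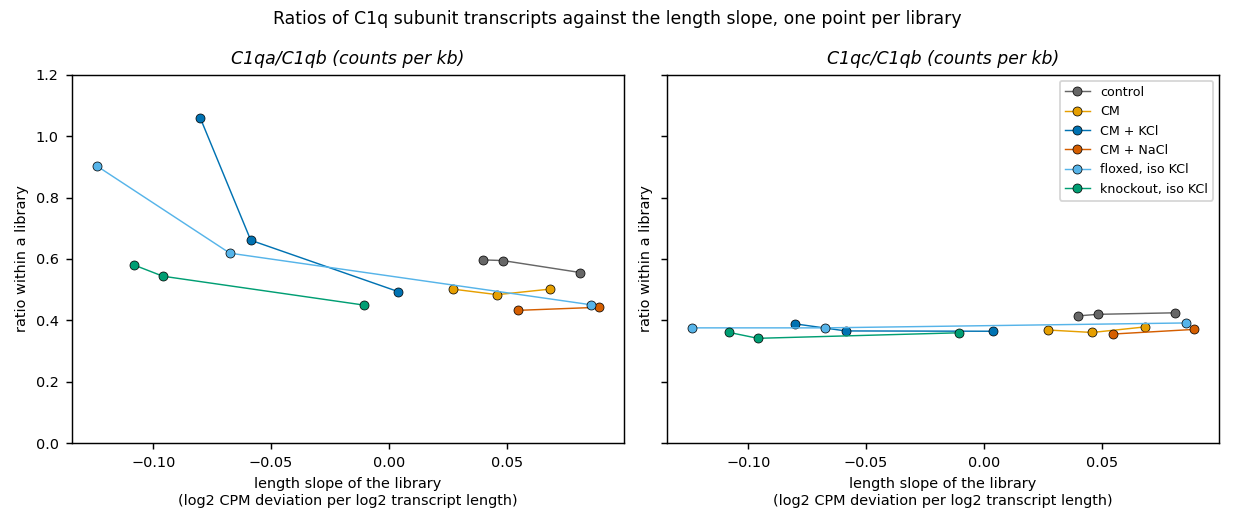
Ratio of C1qa to C1qb (left) and of C1qc to C1qb (right) in counts per kb, against the length slope of each library; points are libraries, joined within a group in order of slope. C1qa/C1qb spans 0.433 to 1.06 and is highest at low slopes in the KCl, floxed and knockout groups, while C1qc/C1qb stays between 0.342 and 0.425.

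Of the receptor kinases, Mertk had its highest levels in control cells and Axl did not. The genes lie at chr2:128698956-128802894 (plus strand) and chr7:25757273-25788705 (minus strand), each with 19 exon blocks. In conditioned medium Mertk was called lower and Axl was not called, and both were called lower with KCl. The promoter windows of both are shown (chr2:128698665-128698964 and chr7:25788684-25788983, 5′ to 3′ on the gene's strand, with the same 4 motifs in capitals).
Mertk: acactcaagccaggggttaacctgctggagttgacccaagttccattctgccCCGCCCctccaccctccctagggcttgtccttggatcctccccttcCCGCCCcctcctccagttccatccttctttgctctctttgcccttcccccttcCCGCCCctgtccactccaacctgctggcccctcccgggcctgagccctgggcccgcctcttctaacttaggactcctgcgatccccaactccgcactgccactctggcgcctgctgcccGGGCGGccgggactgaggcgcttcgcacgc
Axl: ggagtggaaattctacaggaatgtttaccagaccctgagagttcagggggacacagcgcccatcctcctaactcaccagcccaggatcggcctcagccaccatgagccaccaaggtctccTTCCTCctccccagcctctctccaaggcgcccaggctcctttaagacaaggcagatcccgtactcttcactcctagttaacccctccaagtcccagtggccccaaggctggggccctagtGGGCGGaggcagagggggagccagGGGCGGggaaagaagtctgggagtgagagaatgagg
The Mertk window held 4 GC boxes, at -198, -152 and -99 on the opposite strand and at 21 on its own, and no match to the other 3 motifs. The Axl window held GC boxes at -10 and 15 and GAGGAA at -130 on the opposite strand.

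Mertk measured 74.4, 72.1 and 90.1 CPM in control and 30.5, 37.8 and 35.8 CPM in conditioned medium. With KCl it measured 15.9, 15.8 and 23.8 CPM, and with NaCl 29.0 and 29.5 CPM. Every conditioned medium library was below every control library, and every KCl library below every conditioned medium library. Mertk fell by 1.19 on the log2 scale in conditioned medium (SE 0.146, adjusted p = 1.2e-05, edgeR), to 0.437 of the control level, and by a further 0.91 with KCl (SE 0.154, adjusted p = 0.000263, edgeR). Against conditioned medium, NaCl gave -0.24 (SE 0.166, adjusted p = 0.325, edgeR), and passed when both groups were fitted alone (-0.23, adjusted p = 0.0484). A fit that carried the length slope as a covariate ended the KCl call, at -0.31 (adjusted p = 0.0999, the highest over 15 alternatives, with the lowest at 3.21e-13), and called the NaCl difference lower, at -0.40 (adjusted p = 0.00213). The same covariate turned the KCl against NaCl difference from -0.67 (SE 0.17, adjusted p = 0.0111, edgeR) to 0.086 (adjusted p = 0.879).

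Axl measured 197.8, 188.4 and 206.9 CPM in control, 231.1, 239.6 and 244.5 CPM in conditioned medium, 176.9, 153.0 and 231.8 CPM with KCl, and 274.9 and 289.5 CPM with NaCl. Conditioned medium libraries lay above control libraries without passing the test (log2 fold change 0.26, SE 0.119, adjusted p = 0.0797, edgeR), and scaling by total counts, which moved the median of all genes to -0.373, turned this to -0.074. The difference passed without the low-count filter (adjusted p = 0.0488), with the length slope as a covariate (0.31, adjusted p = 0.000134) and with both groups fitted alone (7.57e-05). Axl fell by 0.36 with KCl (SE 0.12, adjusted p = 0.0222, edgeR), although KCl library 3 overlapped conditioned medium. That call was lost without conditioned medium library 2 or 3 or KCl library 1 or 2 (adjusted p 0.0547 to 0.082), and with both groups fitted alone (0.0692), and the value was 0.11 with the length slope as a covariate (adjusted p = 0.471). Axl was lower with KCl than with NaCl by -0.61 on the log2 scale (SE 0.132, adjusted p = 0.00563, edgeR), and the value was -0.014 with that covariate (adjusted p = 0.976).

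Per length, Axl was the more abundant of the 2 kinases in every library, and the Axl/Mertk ratio separated control from all other groups. The ratio was 1.98 to 2.29 in control cells. It was 5.47 to 6.54 after conditioned medium alone, 8.35 to 9.62 after KCl and 8.16 to 8.45 after NaCl. It reached 7.48 to 8.61 in floxed and 11.3 to 12.0 in knockout libraries, which did not overlap. Each of the comparisons of 3 libraries with 3 gave an exact 2-sided permutation p of 0.1 for this ratio, the smallest that design allows (adjusted p = 0.25 over 15 tests). The remaining kinase of this family, Tyro3, stood at 2.29 CPM in control and 2.45 CPM in conditioned medium, and fell by 1.17 with KCl to 1.05 CPM (SE 0.321, adjusted p = 0.00745, edgeR).

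**Figure D4:**
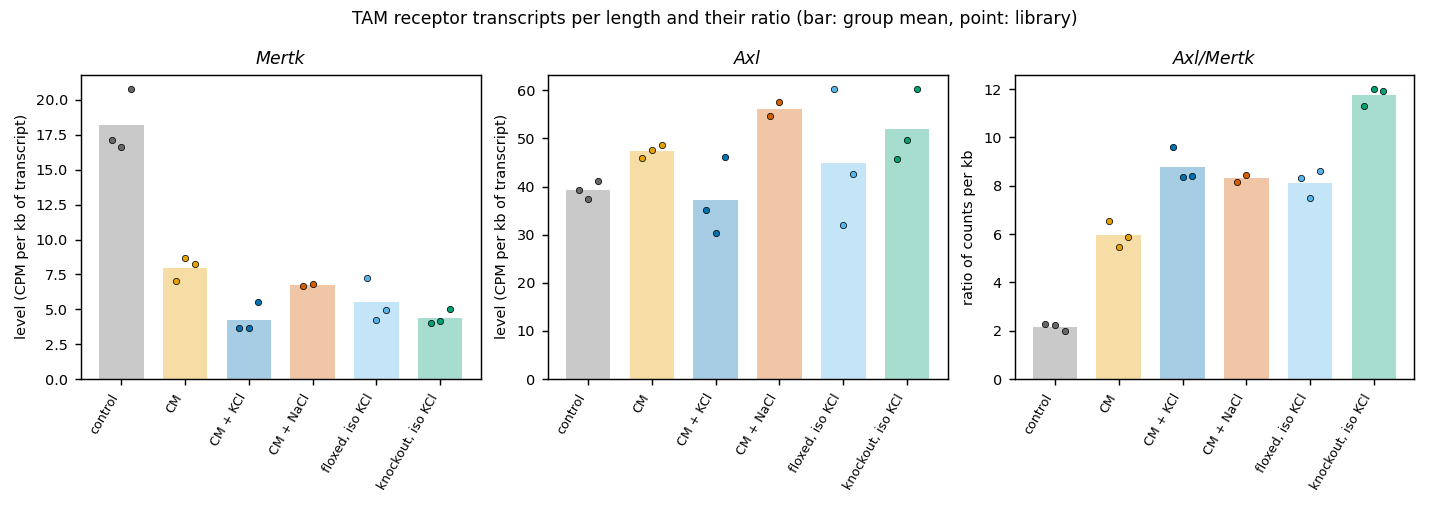
Mertk and Axl levels (CPM per kb of transcript) and their ratio in each library; bars are group means and points are libraries, and all axes start at 0. The ratio is lowest in control (1.98 to 2.29) and highest in knockout libraries (11.3 to 12.0).

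Timd4, a phosphatidylserine receptor typical of resident macrophages, was close to the detection limit. Its counts were 11, 1 and 17 in control, 34, 40 and 32 in conditioned medium, 10, 4 and 5 with KCl, and 17 and 17 with NaCl, and a level under 3 counts cannot be told from 0. In CPM it was 0.505, 0.0424 and 0.698 in control against 2.15, 2.46 and 1.86 in conditioned medium. Timd4 rose by 2.35 in conditioned medium (SE 0.509, adjusted p = 0.00153, edgeR) and fell by 2.25 with KCl (SE 0.548, adjusted p = 0.00352, edgeR). Adding the length slope to the fit ended the KCl call (-1.96, SE 0.938, adjusted p = 0.118). Each conditioned medium library exceeded every library of the other groups. With NaCl its log2 fold change was -1.20 (SE 0.54, adjusted p = 0.118, edgeR).

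Gas6, the bridge to MERTK and AXL, fell and then rose in part with both salts. The gene lies at chr8:13465374-13494490 (minus strand), and 34 of its 2548 exon bases overlap exons of Tmem255b on the opposite strand. It measured 182.5, 171.7 and 182.7 CPM in control, 82.0, 84.5 and 78.2 CPM in conditioned medium, 129.1, 119.6 and 144.3 CPM with KCl, and 101.1 and 109.5 CPM with NaCl. The 4 groups did not overlap, in the order control, KCl, NaCl, conditioned medium. Non-overlap with conditioned medium was common, at 56.7% of all genes with KCl and 60.7% with NaCl. Gas6 fell by 1.14 in conditioned medium (SE 0.0839, adjusted p = 6.98e-08, edgeR), rose by 0.67 with KCl (SE 0.0838, adjusted p = 1.91e-05, edgeR) and rose by 0.37 with NaCl (SE 0.0926, adjusted p = 0.00805, edgeR). The KCl call held in all 15 alternatives. The NaCl call was lost without NaCl library 2 (adjusted p = 0.123) and with scaling by total counts (adjusted p = 0.059). Pros1, which encodes the related bridge protein S, was at 46.4 CPM in control and 36.0 CPM in conditioned medium (log2 fold change -0.37, SE 0.0819, adjusted p = 0.00175, edgeR), and its KCl value was -0.11 (adjusted p = 0.304, edgeR).

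Mfge8, the bridge to integrins (chr7:79133768-79149060, minus strand), measured 545.7, 561.4 and 546.0 CPM in control, 420.8, 406.7 and 415.8 CPM in conditioned medium, 610.2, 570.0 and 578.3 CPM with KCl, and 469.4 and 458.6 CPM with NaCl. Every KCl library exceeded every control library, and every NaCl library lay between conditioned medium and control. Mfge8 fell by 0.42 in conditioned medium (SE 0.0639, adjusted p = 9.1e-05, edgeR) and rose by 0.49 with KCl (SE 0.064, adjusted p = 2.89e-05, edgeR), a call that held in all 15 alternatives. The NaCl value was 0.17 (SE 0.0711, adjusted p = 0.0938, edgeR).

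Trem2 (chr17:48346401-48354147, plus strand) measured 678.3, 678.8 and 646.6 CPM in control, 394.8, 389.2 and 367.9 CPM in conditioned medium, 605.2, 497.6 and 539.5 CPM with KCl, and 412.5 and 388.5 CPM with NaCl. The KCl libraries lay between conditioned medium and control without overlap with either, and the NaCl libraries overlapped conditioned medium. Trem2 fell by 0.81 in conditioned medium (SE 0.0809, adjusted p = 1.68e-06, edgeR) and rose by 0.50 with KCl (SE 0.0807, adjusted p = 0.000166, edgeR), which held in all 15 alternatives. The NaCl value was 0.067 (SE 0.0899, adjusted p = 0.63, edgeR).

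Apoe (chr7:19696109-19699188, minus strand) was by far the most abundant of the 10 genes, at 77.5 to 81.5% of their counts and 1.13 to 2.28% of each library. It measured 16780, 16780 and 17330 CPM in control, 14700, 14280 and 13770 CPM in conditioned medium, 19140, 14270 and 18870 CPM with KCl, and 14780 and 14100 CPM with NaCl. KCl library 2 lay within the range of conditioned medium, and the other 2 KCl libraries above control. Apoe fell by 0.26 in conditioned medium (SE 0.0975, adjusted p = 0.0383, edgeR), which was lost when any 1 of the 6 libraries was left out (adjusted p 0.0654 to 0.111). It rose by 0.28 with KCl (SE 0.0976, adjusted p = 0.0259, edgeR). It no longer passed without conditioned medium library 2 or 3 or KCl library 1 (adjusted p 0.0733 to 0.112), with both groups fitted alone (adjusted p = 0.0964) and with scaling by total counts (0.076, adjusted p = 0.597).

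Loss of Kcnj2 under isotonic KCl gave no call among the 10 genes. None passed in edgeR, none had an unadjusted p under 0.05, and DESeq2 called none, where edgeR called 0.0156% of 12782 genes and 5.6% had an unadjusted p under 0.05. Apoe came closest: it measured 13400, 13270 and 15060 CPM in floxed and 17960, 17000 and 16280 CPM in knockout libraries, which did not overlap, with a log2 fold change of 0.30 (95% interval -0.0014 to 0.60, adjusted p = 0.896, edgeR). Mfge8, at 428.3, 488.4 and 509.2 CPM in floxed and 583.5, 517.8 and 513.7 CPM in knockout libraries, was the only other gene whose groups did not overlap (0.18, 95% interval -0.12 to 0.48). Non-overlap held for 11.2% of all genes tested. Intervals were wide for C1qa (-0.81 to 0.59), which measured 404.3, 898.9 and 664.2 CPM in floxed and 704.3, 637.2 and 478.3 CPM in knockout libraries, and for Axl (-0.35 to 0.78), at 303.3, 160.7 and 214.7 CPM in floxed and 229.7, 250.3 and 303.0 CPM in knockout libraries. In both genes the floxed values followed the length slope, with floxed library 1 at one end and library 2 at the other. With that slope as a covariate, 5 of the 10 genes were called: C1qa lower (-0.25, adjusted p = 0.0022) and C1qb (0.18, adjusted p = 0.0361), Axl (0.39, adjusted p = 0.000105), Trem2 (0.21, adjusted p = 0.00927) and Apoe (0.28, adjusted p = 0.00184) higher in knockout cells, in a fit that called 1088 genes in all. Summed stromal markers were 271 to 552 CPM in floxed and 191 to 262 CPM in knockout libraries, and the B cell list, nearly all Ighm, summed to 20.8 to 23.6 CPM in floxed and 39 to 44.4 CPM in knockout libraries. Their part was not tested.

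The last 2 comparisons cross the strains. Against conditioned medium alone, the floxed strain, the KCl in isotonic medium and any batch cannot be told apart, and against KCl in C57BL/6J cells the strain, the tonicity and any batch cannot be told apart. Dendritic cell markers summed to 8.48 to 9.92 CPM in floxed libraries, between their sums in conditioned medium and with KCl, and their part was not tested. Floxed cells in isotonic KCl against C57BL/6J cells in conditioned medium gave 0 calls among the 10 genes in edgeR, where 15.3% of 14676 genes were called. At an unadjusted p under 0.05 there were 3 (Mertk, Mfge8 and Timd4), which DESeq2 called too, beside 33% of all genes. Without floxed library 1, a setting that called 5589 of 14646 genes, 5 of the 10 genes were called. C1qa (0.56), Trem2 (0.27) and Mfge8 (0.27) were higher, and Mertk (-0.79) and Timd4 (-1.91) lower. The direction of C1qa depended on the setting: with the length slope as a covariate it was called lower (-0.21, adjusted p = 0.015) and Axl higher (0.23, adjusted p = 0.0153). Both also passed that way among libraries with a slope above -0.05 (-0.38, adjusted p = 0.00022, and 0.35, adjusted p = 0.000425), which left 1 floxed library, assumed to vary like the other groups. KCl in C57BL/6J cells against floxed cells in isotonic KCl gave 4 calls, all higher, where 27.8% of genes were called, 12.3% as higher. Gas6 was higher by 0.82 (SE 0.0992, adjusted p = 2.18e-05, edgeR), Trem2 by 0.36 (adjusted p = 0.0205, edgeR), Apoe by 0.33 (adjusted p = 0.0252, edgeR) and Mfge8 by 0.30 (adjusted p = 0.00975, edgeR). Of these, only the Gas6 call held when the 2 groups were fitted alone (adjusted p for the others 0.207 to 0.286). The Trem2 call was also lost without KCl library 1 (0.0892) or floxed library 1 (0.0618), and the Apoe call without KCl library 1 (0.103) or 3 (0.0699). The length covariate added C1qa (higher, adjusted p = 8.91e-05) and Mertk (0.0136) and Axl (0.0075), both lower with KCl. Gas6 measured 79.4, 63.2 and 80.2 CPM in floxed and 85.2, 79.7 and 89.0 CPM in knockout libraries, and its difference between floxed isotonic cells and conditioned medium without salt was -0.13 (SE 0.0988, adjusted p = 0.358, edgeR).

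Counts in the lists that follow stand beside the shares over all genes tested: 27.2% higher and 26.4% lower in conditioned medium, 26.6% and 27.4% with KCl, 13.7% and 14.9% with NaCl, and 15.4% and 16.2% for KCl against NaCl. Median log2 fold changes over all genes were -0.037, -0.012, -0.0084 and -0.037 in that order. List genes were not followed through the alternative settings. Over all genes, calls for KCl against NaCl ran from 8 to 6989 over those settings, where 4591 are reported. They numbered 224 with the length slope as a covariate. Calls for KCl against conditioned medium ran from 4968 to 8840, where 7830 are reported. Other receptors and bridging proteins (23 genes, 21 tested) moved in both directions in conditioned medium: 5 were higher and 10 lower, with a median log2 fold change of -0.12. Among them the lectin-like receptor Olr1 rose by 4.48 to 9.46 CPM and the scavenger receptor Scarf1 by 1.45. The phosphatidylserine receptors Cd300lf (-3.48) and Havcr2 (-3.14) fell. With KCl, 7 were higher and 6 lower, with Olr1 rising further to 38.2 CPM and Anxa1, which encodes annexin A1, down (-1.04). With NaCl, 5 were higher and 5 lower, among them Olr1 (1.58) and Anxa1 (-0.95). In the engulfment list (21 genes, all tested), 8 rose and 8 fell in conditioned medium, with the oxidase subunit Cybb (2.18) and the GTPase Rac2 (1.81) highest, and Rac2 fell with KCl (-1.44) and with NaCl (-0.83). All of these list genes were called by edgeR at an adjusted p under 0.05.

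Other complement genes did not move as the C1q chains did. Of 28 listed, 20 were tested, and in conditioned medium 8 rose and 5 fell, with a median of 0.14. C3, the central component, rose by 2.72 to 197 CPM (SE 0.137, adjusted p = 1.31e-09, edgeR), and the decay-accelerating factor gene Cd55 rose by 2.28. With KCl, 2 were higher (Cd59a and properdin, Cfp) and 13 lower, with a median of -0.69 against -0.012 for all genes tested; Cd55 fell by 2.48 and the anaphylatoxin receptor gene C5ar1 also fell (-2.27). With NaCl 0 were higher and 7 lower, and KCl stood below NaCl for C5ar1 (-1.21) and Cd55 (-0.86). The protease genes that partner C1q were expressed at low levels: in conditioned medium C1ra rose by 1.08 from 3.75 CPM, and C1s1 by 0.68 from 2.37 CPM. These 2 genes, Tyro3, Pros1, Tyrobp and Spi1 are named outside the rule for list genes, after their values were seen.

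Genes of TREM2 signalling and of lipid-associated macrophages (20 genes, all tested) rose more often than they fell with KCl: 12 were higher and 3 lower, with a median of 0.45. The fatty acid binding protein gene Fabp4 rose by 1.44 and osteopontin, Spp1, by 1.21. The phosphatase gene Inpp5d (-1.02) and the kinase gene Syk (-0.53) fell. With NaCl 6 were higher and 2 lower (median 0.16), and KCl exceeded NaCl for 10 genes and stood below it for 3. Whether these list calls hold under the alternative settings was not tested. In conditioned medium 6 rose and 3 fell, with Syk up by 2.55 and Inpp5d down (-1.31). Tyrobp, the TREM2 adaptor, was at 745.9 CPM in control and 671.3 CPM in conditioned medium (-0.16, adjusted p = 0.0576, edgeR) and rose by 0.20 with KCl (adjusted p = 0.0226, edgeR).

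Of the transcription factors known to act on C1q or clearance genes, 14 were tested. In conditioned medium 5 rose and 8 fell, with a median log2 fold change of -0.69. Spic, a factor of red pulp macrophages, rose by 3.89 in conditioned medium, and Mef2c fell (-2.65), from 35.2 CPM in control to 5.64 CPM. Nr1h3, which encodes the sterol receptor LXRα, was at 93.3 to 103 CPM in control cells and 159 to 163 CPM after conditioned medium. The salts brought it to 49.0 to 60.2 CPM (KCl) and 52.7 to 57.5 CPM (NaCl). It fell by 1.53 with KCl (adjusted p = 2.27e-08, edgeR) and also fell with NaCl (-1.54, adjusted p = 2.9e-07, edgeR). Maf measured 250.2, 244.6 and 257.5 CPM in conditioned medium, 97.8, 182 and 61.8 CPM with KCl and 96.1 and 95.4 CPM with NaCl, and fell with both salts (-1.16 with KCl, adjusted p = 0.00604, and -1.38 with NaCl, adjusted p = 0.0101, edgeR). It was 146, 320 and 199 CPM in floxed and 187.3, 190.4 and 148.3 CPM in knockout libraries. In control cells, with KCl, with NaCl and in floxed cells, its order among libraries was that of C1qa. In these groups it was also the order of the length slopes, with Maf highest at the lowest slope. In conditioned medium and in knockout cells Maf followed neither order. A link between Maf and C1qa was not tested. Spi1, which encodes PU.1, was at 398.7 CPM in control and 837.6 CPM in conditioned medium (1.06, adjusted p = 1.22e-07, edgeR).

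Genes of the sheddases that release MERTK, AXL and TREM2 from the cell surface, with their regulators, all passed the test in conditioned medium, 2 higher and 4 lower of 6, beside 53.5% of all genes. Adam17 rose by 1.46 to 622 CPM and its partner Rhbdf2 by 1.89, and the inhibitor genes Timp3 (-1.08) and Timp1 (-0.89) fell. With KCl, Timp1 rose by 0.93 and Timp3 fell by 0.71. With NaCl, 1 of the 6 was called, Adam10 (higher by 0.35, adjusted p = 0.00317, edgeR). Shedding itself was not measured.

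**Figure D5:**
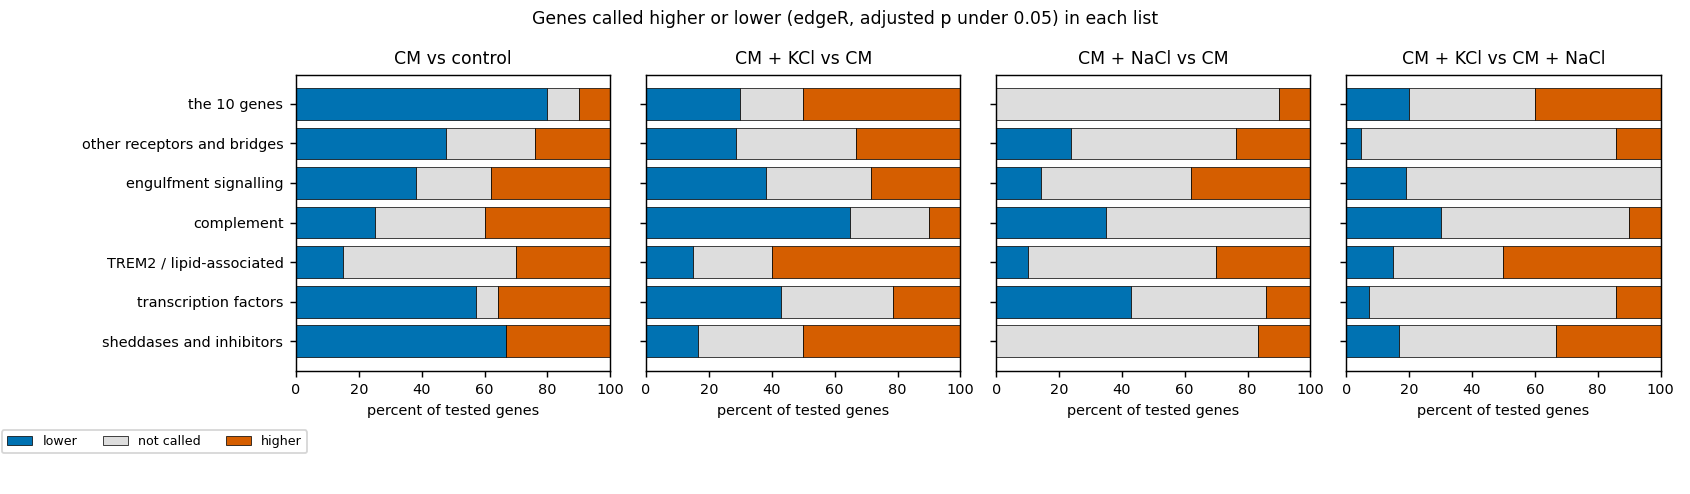
Share of tested genes called lower, not called or called higher (edgeR, adjusted p under 0.05) in the 10 genes and 6 related lists, in 4 comparisons (CM, conditioned medium). The complement list is mostly lower with KCl (13 of 20), and the TREM2 and lipid-associated list mostly higher (12 of 20).

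Patterns over the 6 group means were compared with those of 7943 protein-coding genes, as Pearson's r of log2(CPM + 1). This is a description over 6 points, and the points share libraries and depth. The 5 closest to the mean of the 3 C1q chains were Rgs10, Ptpa, Smim14, Gpx1 and Zfp626 (r 0.978 to 0.992). For Mertk they were Mthfd1, Prps2, Las1l, Phka2 and Extl3 (0.993 to 0.998), and for Axl Zscan21, Igf2r, Ubxn6, Agpat2 and Ctps2 (0.956 to 0.993). For Gas6 they were Manba, Gadd45g, Fkbp4, Grsf1 and Fam193b (0.982 to 0.986), and for Mfge8 Plekho1, Smpdl3a, Dcaf11, Osbpl9 and Arsb (0.981 to 0.994). Trem2 was closest to Ergic3, Cdt1, Tspan13, Pon3 and Gpr157 (0.989 to 0.997), Timd4 to Secisbp2l, Rnf103, Myo1e, Ust and Wbp11 (0.959 to 0.993), and Apoe, less closely, to BC028528, Osbpl9, Dexi, Cdadc1 and Msra (0.893 to 0.944). Among the 10 genes, r was 0.946 for C1qb with C1qc and 0.605 for C1qa with C1qb, and Apoe followed Mfge8 (0.902) and Trem2 (0.862) more closely than it followed Mertk (0.0126).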

How the data were processed

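RNA of 17 libraries was analysed from the deposited table of raw read counts per Ensembl mouse gene, taken unchanged from the authors. For the aligner, counter, strand setting and genome build, the sources used here give nothing; DESeq2 1.30.1 is listed without a role per the submitters' processing notes. Symbols, positions and exon lengths came from GENCODE M21 on GRCm38, and 260 of the 55401 identifiers had no symbol. The 10 genes, the 6 related lists and the alternatives were chosen with earlier results of these data known. Groups follow the treatment and strain labels.

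Counts were tested with edgeR 4.0.16 in R 4.3.3 (quasi-likelihood F test, robust, TMM factors, filterByExpr by group). One fit held the 11 C57BL/6J libraries, another the 6 isotonic ones, and the last one all 17, for comparisons across strains. P-values were adjusted by Benjamini and Hochberg's method across every gene in a fit, with a threshold of 0.05. Fold changes are log2 with standard errors (SE). At 13503869 to 19391623 counts per library, a gene at 0 counts is known only to be under 3 counts, a limit of counting error alone. List genes named are taken from the 2 highest and the 2 lowest called in a comparison with at least 5 CPM in a group. Genes most alike are the 5 with the highest r and at least 10 CPM over all libraries. One list gene that this rule names is not reported here. Scripts were tested on simulated counts. Alternatives were DESeq2 1.42.0, RLE factors, total-count scaling, no filter, a stricter filter (at least 1 CPM in 3 libraries and 20 counts on average), a replicate block, the length slope as a covariate, the compared groups alone, each library left out and, added after seeing the data, only libraries with a slope above -0.05. Counts of no replicate pair agreed within sampling noise, so none was merged.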

Additional observations from a re-analysis of the deposited data

How the results depend on the processing

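Scaling by total counts instead of TMM moved the median log2 fold change of all genes by more than 0.1 in 4 comparisons, to -0.373 for conditioned medium against control (24.9% of calls higher, against 50.8%), -0.222 for KCl against conditioned medium (32.6% against 49.3%), -0.177 for KCl against NaCl (30.1% against 48.6%) and -0.182 for floxed isotonic cells against conditioned medium (26.1% against 53.6%). Under NaCl the share of calls that were higher went from 48% to 37%. This scaling turned the sign of 6 values that had not passed the test. Among them were Axl in conditioned medium (-0.074) and C1qb (-0.13) and C1qc (-0.12) with KCl. The others were Trem2 (-0.0010) and Apoe (-0.043) with NaCl, and Trem2 in floxed isotonic cells against conditioned medium (-0.026). All 6 stayed above the median of all genes under the same scaling, which was -0.077 with NaCl.

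With the length slope as a covariate, calls over all genes were 4968 for KCl against conditioned medium (7830 as reported), 224 for KCl against NaCl (4591), 1088 for knockout against floxed (2) and 6671 for KCl against floxed isotonic cells (4076). It turned the sign of Axl with KCl (0.11), Apoe with NaCl (-0.022) and Mertk for KCl against NaCl (0.086), and, for floxed isotonic cells against conditioned medium, of C1qa (-0.21), Axl (0.23) and Trem2 (-0.0027). Restricting the fit to libraries with a slope above -0.05, an alternative chosen after seeing the data, left 1 KCl and 1 floxed library, each assumed to vary like the other groups. It gave 2359 calls for KCl against NaCl, and C1qa (-0.38), Axl (0.35) and Trem2 (-0.099) turned sign for floxed isotonic cells against conditioned medium.

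Fitting only the 2 groups compared gave 6245 calls for NaCl against conditioned medium (4161 as reported), 8 for KCl against NaCl, 411 for floxed isotonic cells against conditioned medium (2245) and 1218 for KCl against floxed isotonic cells. For knockout against floxed, DESeq2 gave 177 calls and no filter 12. No label says that replicate numbers pair the libraries. Residuals correlated above 0.1 in 7 of 15 same-numbered C57BL/6J pairs, against 8 of 30 differently numbered ones. In the isotonic groups this held for 1 of 3 same-numbered and 4 of 6 differently numbered pairs. Whether the numbers mark pairs is not settled, so the replicate block is given only here, as an alternative. It left 0 calls for knockout against floxed and moved no other count of calls by over 1.5 times; among the 10 genes it added Axl in conditioned medium (0.26, adjusted p = 0.0316) and C1qa (-0.33, adjusted p = 0.0366) and Axl (0.32, adjusted p = 0.0388) with NaCl.

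Leaving out 1 library at a time gave 2224 to 3465 calls for NaCl against conditioned medium, 960 to 6989 for KCl against NaCl (the extremes without NaCl library 2 and without KCl library 3), 0 to 14 for knockout against floxed, and 1081 to 5589 for floxed isotonic cells against conditioned medium (5589 without floxed library 1). Values that changed sign ran from -0.0014 to 0.051 for Apoe with NaCl, from -0.37 to 0.18 for C1qa and from -0.66 to 0.061 for Timd4 in knockout against floxed cells, and from -0.35 to 0.13 for Axl and from -0.086 to 0.0084 for Apoe in floxed isotonic cells against conditioned medium. Over all alternatives, 846 values of the 10 genes kept their direction and side of the threshold, 61 lost and 54 gained a call, and 21 changed sign; the cause was not tested. The stricter filter left out Timd4 in all 7 comparisons. Depth limits Timd4, at 1 to 40 counts per library.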
